A study of Mus musculus with 12 samples.

Results

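The 48 genes described here act in the G2 phase of the cell cycle and in mitosis. They were taken by symbol from the 44792 rows of a gene count table, and all 48 were found. The table came from RNA sequencing of primary tubular epithelial cells. The cells were isolated from renal cortex of C57BL/6 mice of 4 genotypes, with 3 mice and so 3 libraries in each. MYC-OE SETD2-KO mice were Ksp1.3/cre; MYCfl/fl;Setd2fl/fl, MYC-OE mice were Ksp1.3/cre; MYCfl/fl, SETD2-KO mice were Ksp1.3/cre; Setd2fl/fl, and WT mice were Setd2fl/fl without Cre. MYC encodes a transcription factor that drives cell growth, and Setd2 encodes the enzyme that trimethylates lysine 36 of histone H3. The Ksp-cadherin promoter that drives Cre is active in renal tubule epithelium. MYC-OE differed from WT in Cre and in the MYC allele, and also lacked the floxed Setd2 allele that the 3 other groups carried. No source used here gives ages. The comparisons ask what MYC and Setd2 loss, alone and together, change in these cells.

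The libraries held 8889185 to 14314434 counts in MYC-OE SETD2-KO, 15712963 to 17132375 in MYC-OE, 16657538 to 41608501 in SETD2-KO and 22997852 to 44227191 in WT. Values below are CPM, read counts brought to a common library total with TMM factors (a trimmed mean of log ratios between libraries). The libraries were sorted into 3 sets by their level of mitochondrial ribosomal RNA, with earlier results of these data known. No source used here names these sets, and what made them differ was not tested. MYC-OE SETD2-KO 1 and 2 and MYC-OE 1 were in set 2 (100 to 10000 CPM). MYC-OE SETD2-KO 3, MYC-OE 2 and 3 and SETD2-KO 3 were in set 3 (under 100 CPM). SETD2-KO 1 and 2 and the 3 WT libraries were in set 1 (over 10000 CPM). MYC-OE SETD2-KO 1 and 3 and SETD2-KO 3 had Xist and no Y-linked counts, unlike the other libraries. The Setd2 row sums reads over the whole gene and so does not check the loss of a floxed part: it stood at 62.1, 51.1 and 80.6 CPM in MYC-OE SETD2-KO, 62.1, 62.1 and 56.8 CPM in MYC-OE, 58.8, 79.0 and 63.4 CPM in SETD2-KO, and 70.9, 79.8 and 86.4 CPM in WT. The Myc row held 6.49, 2.27 and 14.01 CPM in MYC-OE SETD2-KO, 3.22, 4.89 and 4.04 CPM in MYC-OE, 2.85, 2.73 and 3.99 CPM in SETD2-KO, and 3.44, 3.11 and 3.16 CPM in WT, and no source used here says whether it counts transgene reads. Proximal tubule markers, which define most cortical tubule cells, were detected in all groups. Their sum was 1766 to 43630 CPM in MYC-OE SETD2-KO and 8801 to 40520 CPM in MYC-OE. It was 15410 to 51020 CPM in SETD2-KO and 52370 to 61760 CPM in WT. In the same order of groups, podocyte markers summed to 134.5 to 2404, 134.8 to 265.8, 657.4 to 1509 and 821.3 to 1508 CPM. Endothelial markers summed to 517.4 to 1305, 333.3 to 479.9, 590.1 to 675.5 and 353.1 to 712.9 CPM. The part of cell composition was not tested.

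Cells that pass from G2 into mitosis transcribe a shared group of genes, for the kinases that start mitosis, the kinetochores that hold chromosomes to the spindle, the condensins that compact DNA and the motors and scaffolds that divide the cell. Their promoters are known for the cell cycle homology region (CHR) and for CCAAT boxes. The CHR is bound by the DREAM complex, which represses these genes in resting cells, and later by MuvB with B-MYB and FOXM1, which activates them. Most cells of an adult kidney tubule are not dividing, so these transcripts are normally scarce there. In a bulk library, fewer cycling cells and less RNA per cycling cell cannot be told apart.

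The 48 genes were searched for these promoter letters, because promoters of such genes are known for them. RefSeq promoter windows of GRCm38.p6, running from 250 bases before to 50 after the annotated start, were at hand for 39 of the 48. Both strands were searched for the CHR as TTTGAA or as TTCGAA, for the CCAAT box by its own letters, for the E-box, which MYC binds with MAX, as CACGTG, and for E2F letters as TTTCGCG, else as TTTGGCG, else as TTTCCCG, or as TTTGCCG; 1 match of a motif overlapped another motif among the 39 windows. CHR letters were in 30 of 39 windows (76.9%), against 17.9% of all 17751 windows. CCAAT letters were in 29 (74.4%), against 38.7% of all windows, and both were in 66.7%, against 7.18%. E-box letters were in 2 of 39 (5.13%), against 8.03%, and E2F letters in 8 (20.5%), against 7.99%. Over the 11197 windows of tested genes, CHR letters were in 13.7%, CCAAT in 38.4%, E-box in 9.92% and E2F letters in 10.6%. Each window used the RefSeq start nearest the deposited gene start, which for Kif2c was 3852 bases away. The CHR letters lay mostly near the start: 26 of 39 windows (66.7%) held them between 60 bases before and 50 after it, against 4.86% of all windows. The 8 windows below show the motifs, or their absence, in genes that turn up in the results: Racgap1, Bub1, Cdc20, Top2a and Mki67 were called in MYC-OE, Ube2c was not, and Spc25 and Zwint are the 2 genes with a fold change below 0 there. Each runs from 120 bases before to 30 after the start, 5′ to 3′ on the gene's strand, with CHR and CCAAT letters of either strand in capitals.
Racgap1 (chr15:99651627-99651776, minus strand): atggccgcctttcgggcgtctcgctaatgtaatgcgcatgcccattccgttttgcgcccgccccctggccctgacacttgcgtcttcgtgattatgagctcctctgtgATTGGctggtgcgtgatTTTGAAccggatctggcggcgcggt
Bub1 (chr2:127831830-127831979, minus strand): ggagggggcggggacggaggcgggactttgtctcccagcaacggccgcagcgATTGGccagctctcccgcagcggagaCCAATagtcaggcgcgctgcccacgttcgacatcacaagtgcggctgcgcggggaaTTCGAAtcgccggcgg
Cdc20 (chr4:118437314-118437463, minus strand): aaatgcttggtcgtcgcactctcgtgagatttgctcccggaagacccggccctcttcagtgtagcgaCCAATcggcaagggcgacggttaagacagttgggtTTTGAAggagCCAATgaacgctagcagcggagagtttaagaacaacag
Top2a (chr11:99024160-99024309, minus strand): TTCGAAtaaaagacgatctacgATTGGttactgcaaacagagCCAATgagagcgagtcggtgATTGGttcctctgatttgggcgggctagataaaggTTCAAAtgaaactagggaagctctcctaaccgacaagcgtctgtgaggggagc
Mki67 (chr7:135716350-135716499, minus strand): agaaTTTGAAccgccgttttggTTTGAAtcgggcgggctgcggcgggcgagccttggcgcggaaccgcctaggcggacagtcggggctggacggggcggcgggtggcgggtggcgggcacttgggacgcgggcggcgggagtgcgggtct
Ube2c (chr2:164769809-164769958, plus strand): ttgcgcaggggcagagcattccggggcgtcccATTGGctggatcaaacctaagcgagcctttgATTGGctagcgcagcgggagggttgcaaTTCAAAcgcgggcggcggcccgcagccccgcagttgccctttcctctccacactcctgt
Spc25 (chr2:69206184-69206333, minus strand): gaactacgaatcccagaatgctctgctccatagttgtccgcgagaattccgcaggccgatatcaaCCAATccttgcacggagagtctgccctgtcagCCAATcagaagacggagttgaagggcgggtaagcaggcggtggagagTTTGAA
Zwint (chr10:72654726-72654875, plus strand): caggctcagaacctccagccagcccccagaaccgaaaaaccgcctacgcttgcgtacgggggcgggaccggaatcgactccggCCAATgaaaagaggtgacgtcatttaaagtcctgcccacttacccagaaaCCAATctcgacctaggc

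With the start base as 1 and the base before it as -1, the CHR letters began at base 6 in Racgap1, 15 in Bub1, -18 in Cdc20, -29 in Ube2c and 25 in Spc25. In Cdc20 they stood between CCAAT letters at -53 and -8. In Top2a the nearest copy began at -23 and others at -120, -140 and -179, while Mki67 had copies at -116 and -98 and CCAAT letters before the printed stretch only. Zwint had CCAAT letters at -37 and 14 and no CHR letters in the window. Holding the letters did not separate the genes that were called in MYC-OE against WT from the others: CHR letters were in 76.5% of the 17 called genes with a window and 77.3% of the 22 others. A match is a description of the letters and not of binding.

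Most of the 48 genes were scarce in WT, and 2 were not. Scaled per kilobase of transcript, Zwint, a kinetochore adaptor for the spindle checkpoint, had the highest mean level in WT at 37.6 CPM per kilobase, and Spc25, a subunit of the NDC80 kinetochore complex, the next at 24.8. Mad2l1, the checkpoint protein that holds back anaphase, followed at 3.02, and 40 of the 48 genes were under 1. The median gene stood at 0.674 CPM per kilobase in MYC-OE SETD2-KO, 2.14 in MYC-OE, 0.381 in SETD2-KO and 0.383 in WT. Genes under 1 CPM per kilobase numbered 34 in MYC-OE SETD2-KO, 5 in MYC-OE and 36 in SETD2-KO. Zwint and Spc25 together made up 43.0% to 68.4% of the summed CPM of the 48 genes in MYC-OE SETD2-KO libraries, 11.7% to 45.1% in MYC-OE, 51.4% to 66.3% in SETD2-KO and 62.8% to 66.7% in WT.

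**Figure D1:**
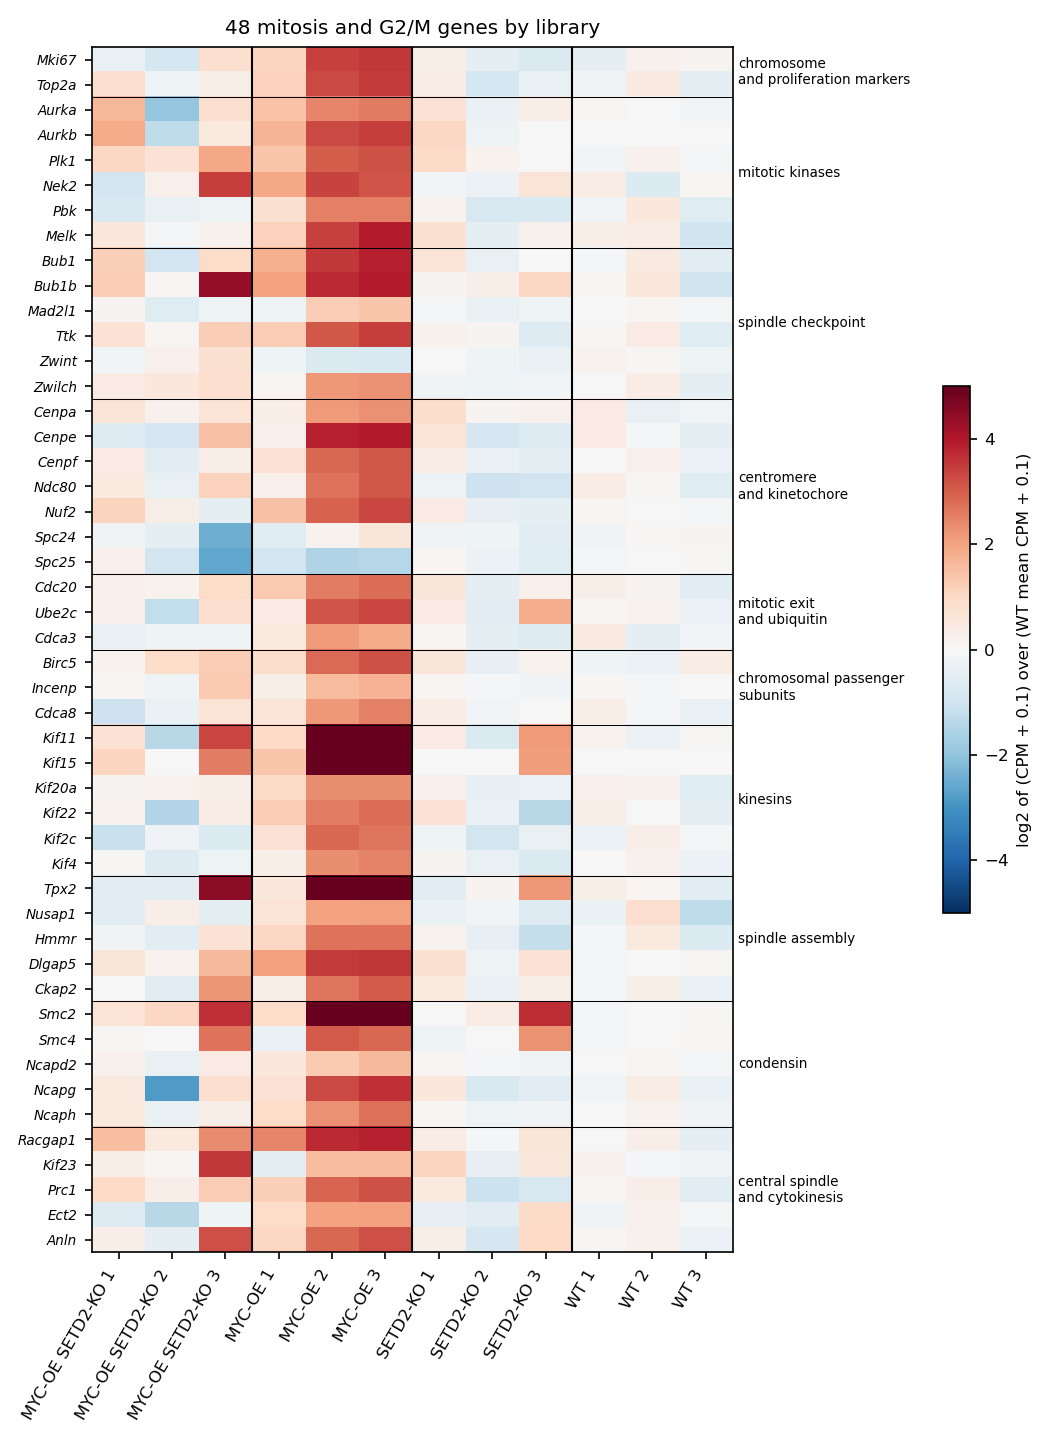
Level of each of the 48 genes in each library, as log2 of (TMM-scaled CPM + 0.1) over the WT mean, with genes in rows by role and libraries in columns by group. Colour ends at 5 on either side, which Kif11, Kif15, Tpx2 and Smc2 exceed in MYC-OE 2 and 3; those 2 libraries hold the strongest red across nearly all rows, MYC-OE 1 is paler, and Zwint and Spc25 stay pale or blue.

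In MYC-OE, genes of every role in mitosis rose against WT. Of the 48 genes, 21 rose and 0 fell (edgeR quasi-likelihood test, Benjamini-Hochberg adjusted p from 0.0407 to 0.04998, 3 libraries per group), where 5.62% of all 17019 tested genes rose and 2.36% fell. Their log2 fold changes ran from 1.22 for Ncapd2 to 3.65 for Bub1. The median over all 48 was 2.59, against 0.00 over all genes, and 46 of 48 were above 0. In 37 of 48 every MYC-OE library was above every WT library, where 25.5% of all genes were, and Spc25 was lower in every MYC-OE library, where 25.0% of all genes were. The called genes sat close to the threshold. The other 27 had an adjusted p from 0.0507 to 0.863, under 0.1 in 21 of them, and were Anln, Aurka, Bub1b, Cdca3, Cdca8, Cenpa, Cenpe, Ckap2, Ect2, Incenp, Kif11, Kif15, Kif22, Kif23, Mad2l1, Ncapg, Ndc80, Nek2, Nusap1, Smc2, Smc4, Spc24, Spc25, Tpx2, Ube2c, Zwilch and Zwint. Leaving out any single WT library, MYC-OE 2 or MYC-OE 3 took the count to 0, when 0.0056%, 0.00575% and 0.00577% of all genes rose, and leaving out MYC-OE 1 took it to 44 (14.8%). With a term for the sets 9 genes rose (0.922% of all genes), of which 6 were among the 21, and the median was 2.91. No set holds both MYC-OE and WT libraries, so that the step between set 1 and the others rests on SETD2-KO 3 alone. That library had Xist and no Y-linked counts, unlike SETD2-KO 1 and 2, so the set term also takes in sex. DESeq2 called 43 of the 48 higher (16.9% of all genes), limma-voom 12 (2.84%) and edgeR on total counts 43 (28.3%).

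Mki67 and Top2a, the textbook markers of dividing cells, showed how the 3 MYC-OE libraries differed among themselves. Mki67, which coats mitotic chromosomes, had 10.7, 54.2 and 58.1 CPM in MYC-OE, against 3.56, 5.84 and 5.53 CPM in WT. Every MYC-OE library was above every WT library, but MYC-OE 1 was far nearer to WT than to MYC-OE 2 and 3. The log2 fold change of Mki67 was 3.04 ± 0.67 (SE, 3 mice per group, edgeR adjusted p = 0.0421). Top2a, the topoisomerase that untangles replicated chromosomes, had 7.28, 32.6 and 38.1 CPM in MYC-OE, against 2.89, 4.53 and 2.34 CPM in WT. The groups did not overlap, with the same gap between MYC-OE 1 and the other two, and Top2a rose by 3.0 ± 0.62 on the log2 scale (SE, 3 mice per group, edgeR adjusted p = 0.0407).

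That gap ran through the whole group of genes. MYC-OE 2 and 3 were both above MYC-OE 1 in 46 of 48 genes, where 47.4% of all genes were. The median log2 ratio was 1.85, against 0.05 over all genes. Zwint and Spc25 were lower in both, where 44.5% of all genes were. The median log2 ratio to the WT mean was 0.89 in MYC-OE 1, 2.85 in MYC-OE 2 and 3.08 in MYC-OE 3. MYC-OE 1 was above every WT library in 37 of 48 genes, where 37.9% of all genes were, and MYC-OE 2 and 3 in 46 each (42.4% and 42.5%). When set 3 was dropped, so that MYC-OE 1 stood alone against WT, the median was 0.98 and 4 of 46 tested genes rose (Racgap1, Dlgap5, Nek2 and Bub1b), a share near the 10.1% of all genes that rose. That fit takes its spread from the other groups, on the assumption that the lone MYC-OE library varies as they do.

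**Figure D2:**
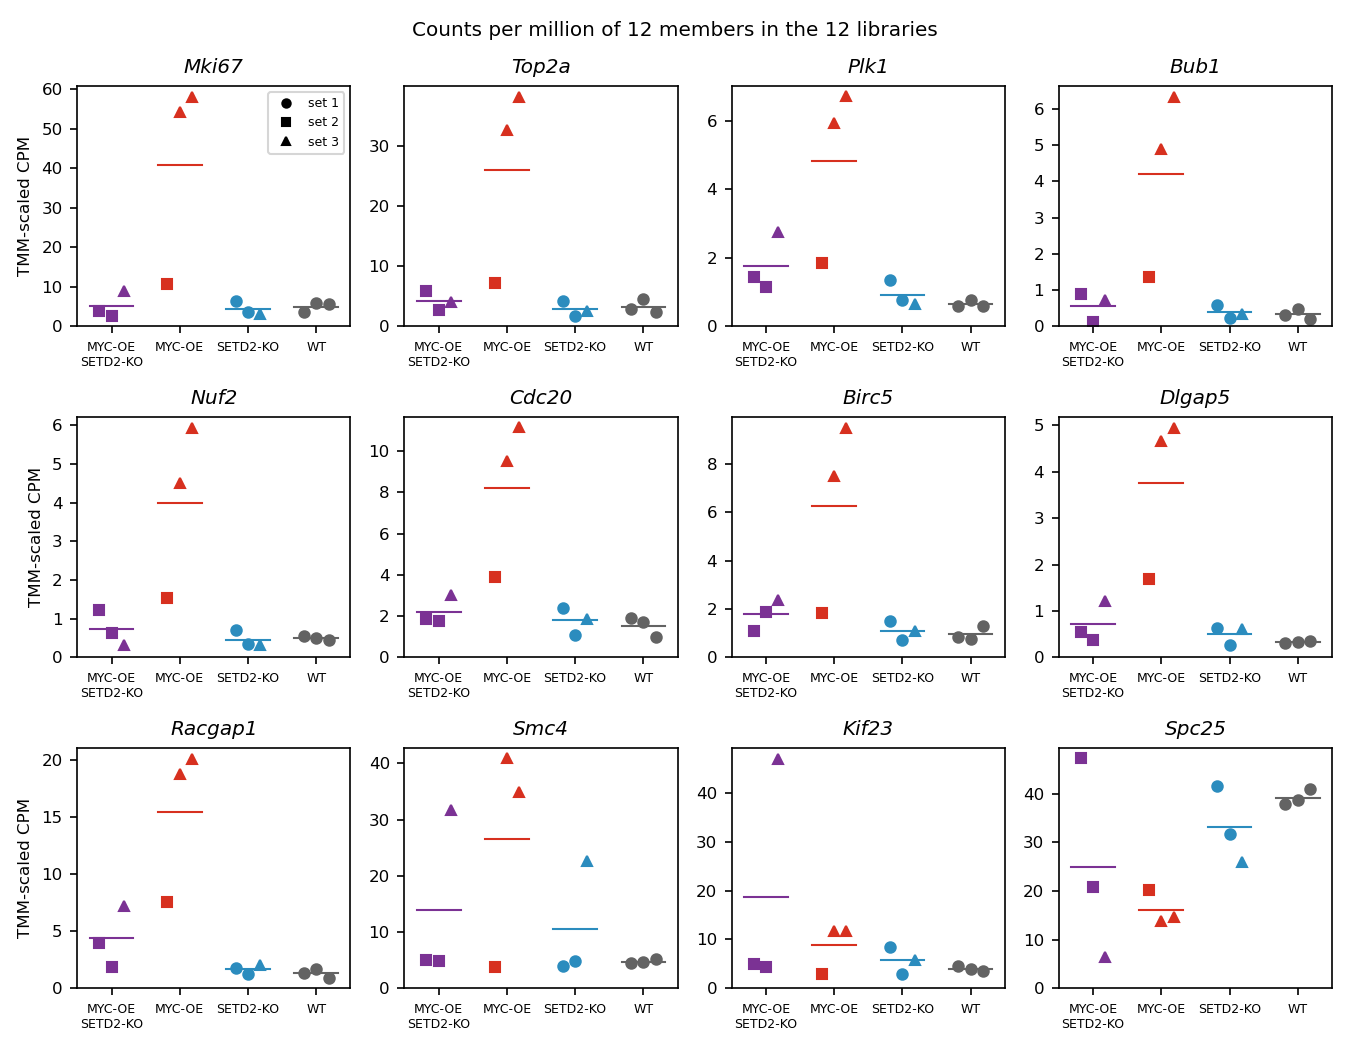
TMM-scaled CPM of 12 of the genes in every library, with a panel per gene, a point per library, its shape giving the set, and a line at each group's mean. Every axis starts at 0. MYC-OE 2 and 3 stand above all other libraries in most panels, Smc4 is high in every set 3 library, Kif23 is highest at 47.0 CPM in MYC-OE SETD2-KO 3, and Spc25 is lower in MYC-OE than in WT.

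All 6 mitotic kinases were higher in each MYC-OE library than in each WT library, and 4 rose. Plk1, which drives entry into mitosis and spindle formation, had 1.85, 5.95 and 6.71 CPM in MYC-OE, against 0.587, 0.764 and 0.598 CPM in WT. It rose by 2.89 ± 0.58 on the log2 scale (SE, 3 mice per group, edgeR adjusted p = 0.0407), with no overlap. Aurkb, the kinase of the chromosomal passenger complex, Melk and Pbk were the other kinases that rose. Nek2, a centrosome kinase, had 3.91, 10.8 and 9.19 CPM in MYC-OE, against 1.25, 0.546 and 1.02 CPM in WT, and did not pass (3.06 ± 1.01, edgeR adjusted p = 0.0734) although the groups stood apart. Aurka, which matures centrosomes, did not pass either (2.38 ± 0.76, edgeR adjusted p = 0.0687).

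Among the 6 checkpoint genes 2 rose, Bub1 and Ttk, both kinases that signal unattached kinetochores. Bub1 had 1.37, 4.89 and 6.32 CPM in MYC-OE, against 0.313, 0.491 and 0.199 CPM in WT, and rose by 3.65 ± 0.78 (log2, SE, 3 mice per group, edgeR adjusted p = 0.0416). The lowest MYC-OE library was still above the highest WT library. Zwint had 87.6, 60.5 and 58.9 CPM in MYC-OE, against 114.5, 104.0 and 83.6 CPM in WT. MYC-OE 1 lay inside the WT range and MYC-OE 2 and 3 below it. The fold change of Zwint was -0.55 ± 0.26 (log2, SE, 3 mice per group, edgeR adjusted p = 0.153), and with total counts in place of TMM it was above 0, at 0.19.

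Of the 7 genes of centromeres and kinetochores 2 rose, Nuf2 and Cenpf. Nuf2, a subunit of the NDC80 complex, had 1.53, 4.49 and 5.93 CPM in MYC-OE, against 0.547, 0.491 and 0.456 CPM in WT, and rose by 2.99 ± 0.63 (log2, SE, 3 mice per group, edgeR adjusted p = 0.0416). The log2 fold changes of its 4 subunits ran from -1.27 to 2.99. Ndc80 stood at 2.65 ± 0.76 without passing (edgeR adjusted p = 0.0548). Spc24 had 1.42, 2.56 and 3.49 CPM in MYC-OE, against 1.96, 2.35 and 2.45 CPM in WT, which overlapped, and stood at 0.15 ± 0.56 (edgeR adjusted p = 0.863). Spc25 had 20.2, 13.8 and 14.6 CPM in MYC-OE, against 37.8, 38.8 and 40.9 CPM in WT. Its groups stood apart in the opposite direction to Nuf2, with a log2 fold change of -1.27 ± 0.54 that did not pass (edgeR adjusted p = 0.124).

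The role of mitotic exit and ubiquitin holds Cdc20, Ube2c and Cdca3. Cdc20 and Ube2c act through the anaphase-promoting complex, a ubiquitin ligase. Cdc20, its activator, had 3.91, 9.52 and 11.1 CPM in MYC-OE, against 1.92, 1.69 and 0.997 CPM in WT, and rose by 2.42 ± 0.50 (log2, SE, 3 mice per group, edgeR adjusted p = 0.0407). The groups did not overlap. Ube2c, the ubiquitin-conjugating enzyme that works with it, had 1.003, 7.27 and 8.13 CPM in MYC-OE, against 0.782, 0.819 and 0.570 CPM in WT. MYC-OE 1 was only just above WT, and the fold change of 2.91 ± 0.90 did not pass (edgeR adjusted p = 0.0641).

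Of the 3 subunits of the chromosomal passenger complex other than its kinase, Birc5 (survivin) rose. It had 1.85, 7.49 and 9.50 CPM in MYC-OE, against 0.821, 0.764 and 1.28 CPM in WT, and a log2 fold change of 2.70 ± 0.61 (SE, 3 mice per group, edgeR adjusted p = 0.0422). Incenp, the scaffold of the complex, had 5.01, 12.4 and 14.02 CPM in MYC-OE, against 4.26, 3.88 and 4.16 CPM in WT. Both genes kept their groups apart, and Incenp stood at 1.35 ± 0.47 without passing (edgeR adjusted p = 0.0817).

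Among the 6 kinesins, the motors of the spindle, Kif20a, Kif2c and Kif4 rose. Kif20a, which acts in cytokinesis, had 4.22, 11.1 and 11.1 CPM in MYC-OE, against 2.54, 2.46 and 1.37 CPM in WT, and rose by 2.05 ± 0.44 (log2, SE, 3 mice per group, edgeR adjusted p = 0.0416). All MYC-OE libraries were above all WT libraries. Kif22, a chromosome-arm motor, had 2.16, 5.55 and 6.56 CPM in MYC-OE, against 1.13, 0.873 and 0.598 CPM in WT, and stood at 2.45 ± 0.71 without passing (edgeR adjusted p = 0.0566), again without overlap.

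Of the 5 spindle assembly genes Dlgap5 and Hmmr, which stabilise spindle microtubules, rose. Dlgap5 had 1.69, 4.67 and 4.95 CPM in MYC-OE, against 0.313, 0.327 and 0.342 CPM in WT, and rose by 3.50 ± 0.61 (log2, SE, 3 mice per group, edgeR adjusted p = 0.0407). WT varied little for this gene, and the lowest MYC-OE library was well above it. Ckap2, which promotes microtubule growth, had 1.003, 5.42 and 7.19 CPM in MYC-OE, against 0.743, 0.983 and 0.598 CPM in WT. MYC-OE 1 was barely above the WT range, and Ckap2 stood at 2.55 ± 0.85 without passing (edgeR adjusted p = 0.0761).

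Condensin compacts chromosomes, and of its 5 subunits here Ncaph and Ncapd2 rose. Ncaph, which closes the ring, had 2.00, 5.20 and 7.26 CPM in MYC-OE, against 0.978, 1.15 and 0.883 CPM in WT, and rose by 2.26 ± 0.48 (log2, SE, 3 mice per group, edgeR adjusted p = 0.0416). Its groups did not overlap. Smc4, an ATPase subunit, had 3.75, 40.9 and 34.9 CPM in MYC-OE, against 4.42, 4.64 and 5.13 CPM in WT. MYC-OE 1 was below every WT library and MYC-OE 2 and 3 far above, and the fold change was 2.49 ± 1.03 (edgeR adjusted p = 0.119).

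Of the 5 genes of the central spindle and cytokinesis, Racgap1 and Prc1 rose. Racgap1, a subunit of centralspindlin, had 7.55, 18.8 and 20.1 CPM in MYC-OE, against 1.33, 1.69 and 0.940 CPM in WT. Its lowest MYC-OE library was further above WT than that of Mki67 or Top2a, and Racgap1 rose by 3.55 ± 0.57 (log2, SE, 3 mice per group, edgeR adjusted p = 0.0407). It was called in 9 of 14 alternatives, DESeq2 and limma-voom among them, as was Dlgap5. Kif23, the motor subunit of the same complex, had 2.90, 11.8 and 11.7 CPM in MYC-OE, against 4.62, 3.88 and 3.50 CPM in WT. MYC-OE 1 was below WT and the others above, and Kif23 stood at 1.14 ± 0.88 (edgeR adjusted p = 0.357).

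**Figure D3:**
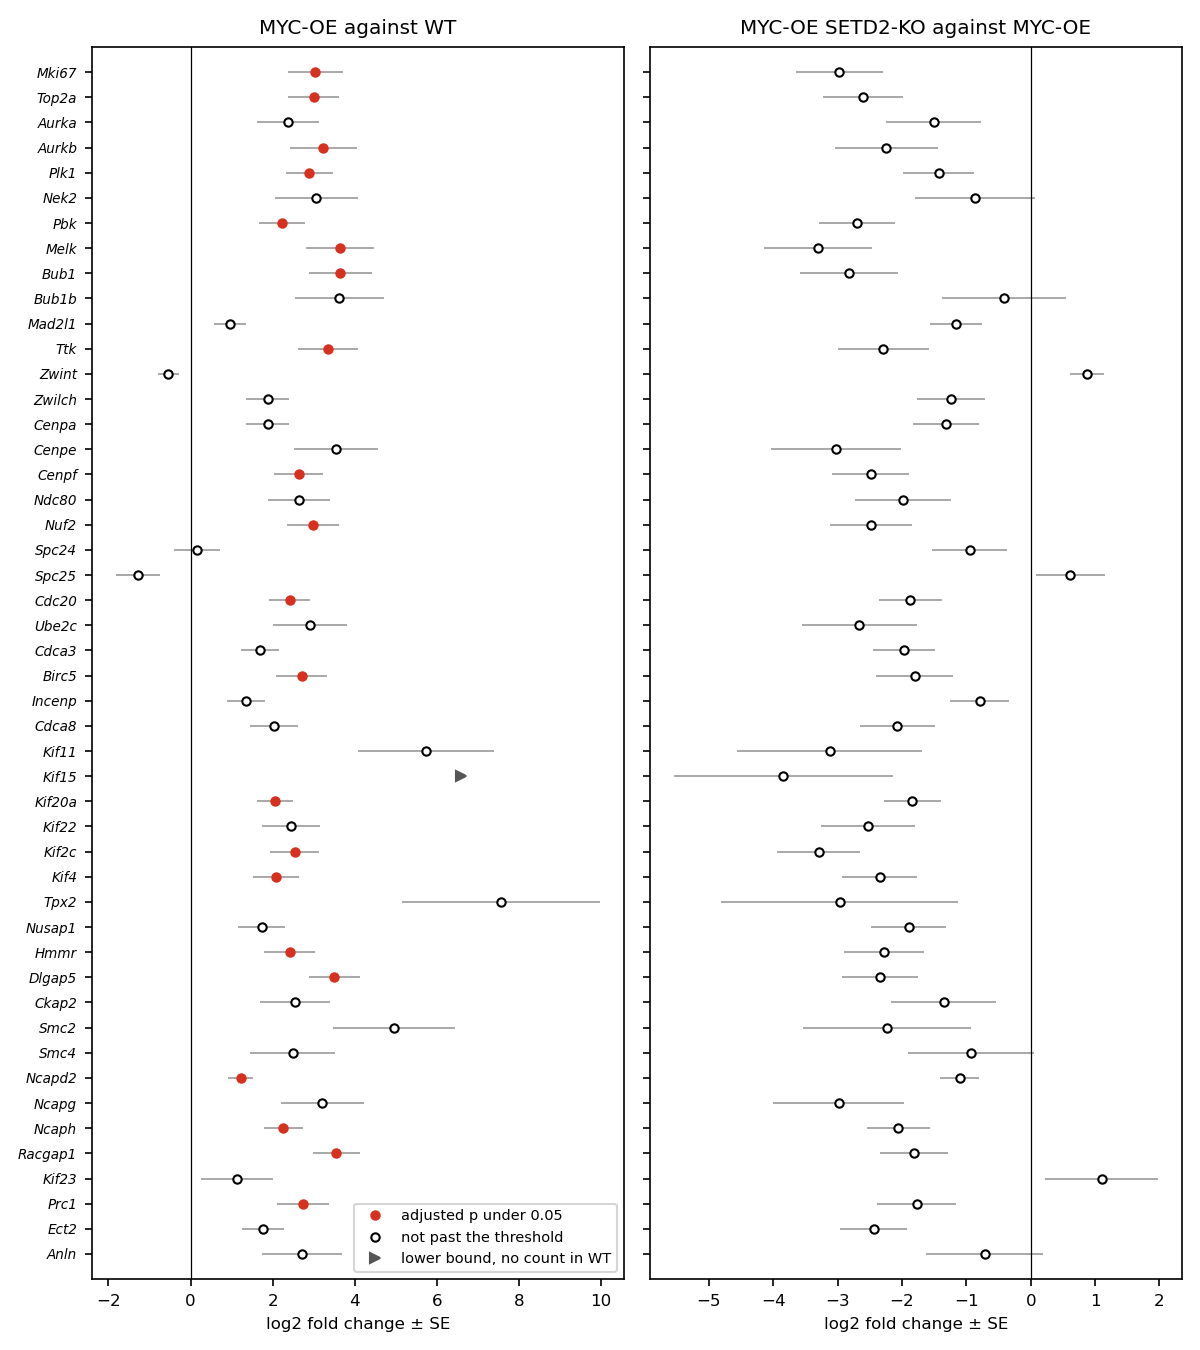
Log2 fold change with its standard error for each of the 48 genes from the edgeR fit, MYC-OE against WT on the left and MYC-OE SETD2-KO against MYC-OE on the right, with filled points for an adjusted p under 0.05. On the left 21 points are filled and Kif15 is drawn as a lower bound because no WT library held a count; on the right no point is filled and 45 of 48 lie below 0.

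The largest fold changes belonged to genes that were also higher in set 3 than in set 1. Kif15, a spindle motor (chr9:122951051-123018733, plus strand, as deposited), had 0.158, 4.63 and 5.46 CPM in MYC-OE and no count in any WT library. Its 247 counts in MYC-OE make it at least 96.9-fold higher, against 3 counts over the WT group. Tpx2, which activates Aurora A on the spindle, had 0.106, 13.6 and 12.6 CPM in MYC-OE and 3 counts in all of WT, a ratio of 247.6 (95% counting interval 84.3 to 1204.0). Of the 48 genes, 10 were higher in every set 3 library, SETD2-KO 3 included, than in every set 1 library: Kif11, Kif15, Tpx2, Smc2, Smc4, Nek2, Bub1b, Ube2c, Anln and Racgap1. The share of all genes that did so was not counted, so this count has no baseline. Set 3 holds MYC-OE 2 and 3 and set 1 holds all WT libraries, so genes high in MYC-OE meet part of this condition in advance. SETD2-KO 3 was above SETD2-KO 1 and 2 in 12 of the 48 genes, where 40.5% of all genes were. Racgap1 had at least 2.08 CPM in set 3 and at most 1.76 CPM in set 1, and Kif11 at least 1.04 CPM and at most 0.247 CPM. Smc2, the other condensin ATPase, had 6.12 CPM in SETD2-KO 3, against 0.388 and 0.523 CPM in SETD2-KO 1 and 2. These 10 genes were picked out after their values were seen. Racgap1, Bub1b and Ube2c overlap no other gene of the table. The other 7 overlap another gene, for Kif15, Smc2 and Anln on the opposite strand, and no source used here says how shared reads were counted. Of the 48 genes 19 overlap another gene. In MYC-OE against WT 5 of these 19 rose, and 16 of the 29 that overlap none.

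The neighbouring steps of the cell cycle were read from 4 lists of other genes. Of 15 tested genes for CDK1, cyclins and their regulators, 6 rose and 0 fell in MYC-OE against WT, with a median of 2.17. Of all genes 5.62% rose and 2.36% fell in that comparison. Cdk1, the kinase that starts mitosis, had 3.01, 12.4 and 13.0 CPM in MYC-OE, against 1.25, 1.58 and 1.05 CPM in WT, and rose by 2.87 ± 0.57 (log2, SE, 3 mice per group, edgeR adjusted p = 0.0407). Its partner Ccnb1, cyclin B1, rose by 4.23 ± 0.85 (edgeR adjusted p = 0.0407). It had 1.27, 5.95 and 8.01 CPM in MYC-OE, against 0.352, 0.382 and 0.0855 CPM in WT. Both genes had all MYC-OE libraries above all WT libraries. Of 52 other tested mitosis genes 12 rose and 1 fell, with a median of 1.83. Espl1, the protease that opens cohesin, rose by 2.82 ± 0.48, and Pttg1, its inhibitor securin, fell by 1.16 ± 0.28 (edgeR adjusted p = 0.0407 and 0.0447).

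The list for the control of G2/M transcription holds both activators and repressors. Of its 13 tested genes 1 rose, where 5.62% of all genes did, with a median of 0.04. That gene was Foxm1, which activates G2/M promoters. It had 2.06, 5.68 and 6.20 CPM in MYC-OE, against 1.49, 0.873 and 0.826 CPM in WT, and rose by 2.13 ± 0.55 (edgeR adjusted p = 0.0474), with no overlap. Mybl2, which encodes B-MYB, had 0.264, 3.22 and 3.06 CPM in MYC-OE, against 0.430, 0.382 and 0.199 CPM in WT, and did not pass (2.69 ± 1.15, edgeR adjusted p = 0.126). MYC-OE 1 lay within the WT range. Of 36 DNA replication genes 5 rose (Uhrf1, Gins2, Mcm5, Mcm3 and Lig1) and 0 fell, with a median of 0.89. Again 5.62% of all genes rose, and 2.36% fell. Uhrf1, which maintains DNA methylation after replication, rose by 3.34 ± 0.60 (edgeR adjusted p = 0.0407).

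Macrophage, lymphocyte and fibroblast markers were highest in the same 2 libraries. The summed level of 18 macrophage and myeloid markers was 360.7, 197.2 and 535.1 CPM in MYC-OE SETD2-KO, 199.4, 1703 and 1772 CPM in MYC-OE, 94.6, 76.7 and 264.2 CPM in SETD2-KO, and 60.6, 56.5 and 86.7 CPM in WT. In MYC-OE against WT 13 of the 18 rose, where 5.62% of all genes did. The sum of 14 lymphocyte markers was 35.5, 31.8 and 525.3 CPM in MYC-OE SETD2-KO, 75.6, 1990.0 and 1769 CPM in MYC-OE, 15.1, 13.5 and 49.1 CPM in SETD2-KO, and 21.7, 21.6 and 15.1 CPM in WT, and 8 of the 14 rose in MYC-OE against WT. MYC-OE 2 and 3 were above all other libraries in both sums.

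Of 14 tubular injury markers 8 rose in MYC-OE against WT, with sums of 2329 to 7387 CPM in MYC-OE, against 1215 to 1444 CPM in WT. Of 14 fibroblast and mural markers 4 rose, where 5.62% of all genes rose and 2.36% fell. Of 15 proximal tubule markers 0 rose or fell, and their sum was 8801 to 40520 CPM in MYC-OE, against 52370 to 61760 CPM in WT. No marker of these lists was at 0 throughout a group. The mitosis genes, the immune and injury markers and the set thus moved together across MYC-OE libraries, and the part of these markers in the mitosis result was not tested.

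**Figure D4:**
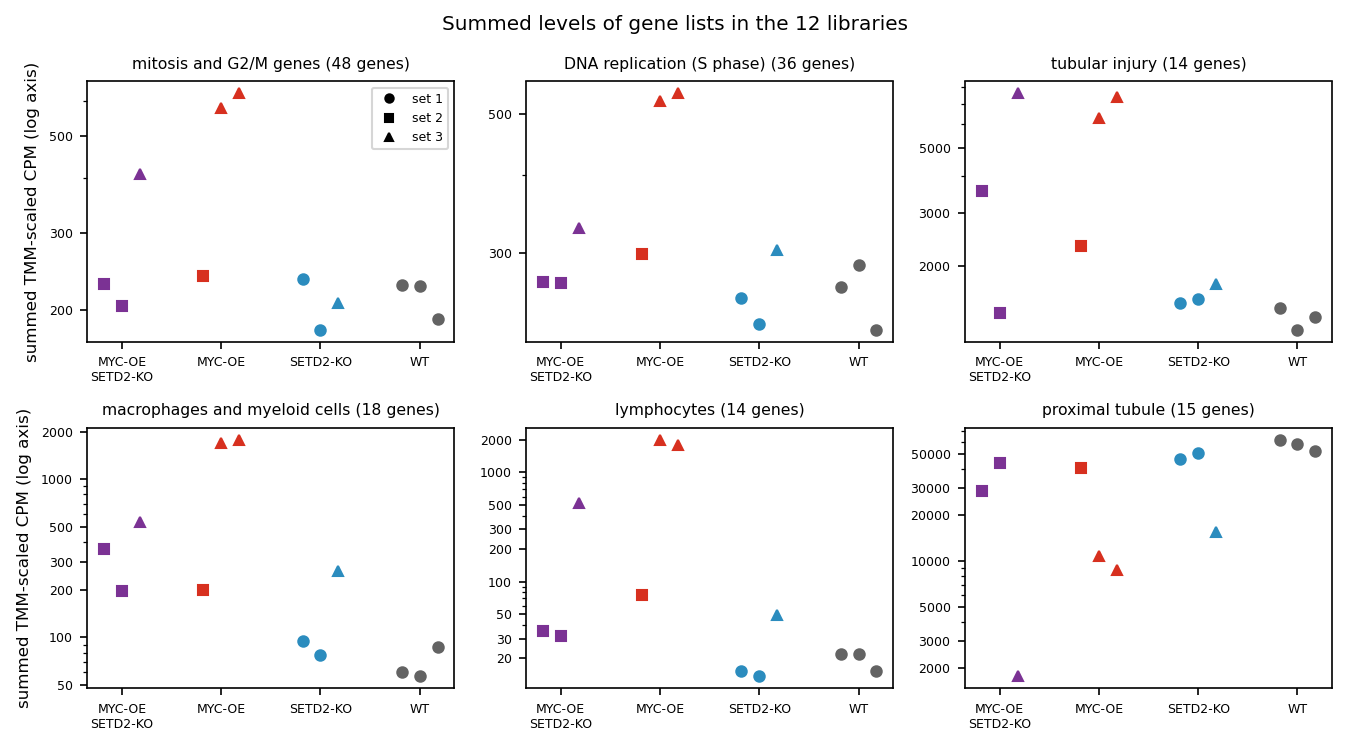
Summed TMM-scaled CPM of 6 gene lists in every library, on log axes, with a point per library, coloured by group and shaped by set. MYC-OE 2 and 3 hold the highest sums of mitosis, replication, macrophage and lymphocyte genes, while proximal tubule markers are lowest in MYC-OE SETD2-KO 3.

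MYC-OE SETD2-KO was then set against MYC-OE, to see what Setd2 loss changes where MYC is expressed. MYC-OE SETD2-KO 1 and 3 had Xist and no Y-linked counts, unlike every MYC-OE library, so sex differed in part with genotype. The same holds for MYC-OE SETD2-KO 3 against MYC-OE 2 and 3, and for the interaction. It also holds for MYC-OE SETD2-KO against WT, MYC-OE SETD2-KO against SETD2-KO, and SETD2-KO against WT. In set 3, SETD2-KO 3 likewise had Xist and no Y-linked counts, unlike MYC-OE 2 and 3. The part of sex was not tested. The mitosis genes were mostly lower in MYC-OE SETD2-KO, but none passed the edgeR test across all genes. Of the 48, 0 were called (0.0529% of all genes were called higher and 0.123% lower), with adjusted p from 0.0954 to 0.916, and 34 had an unadjusted p under 0.05, as did 12.9% of all genes. The median log2 fold change was -2.02, against 0.05 over all genes, and 45 of 48 were below 0. In 21 of 48 every MYC-OE SETD2-KO library was below every MYC-OE library and Zwint was above, where 6.66% and 5.86% of all genes were. DESeq2 called 23 lower (2.62% of all genes) and limma-voom 0. With the set term 8 fell (2.68% of all genes): Mki67, Dlgap5, Racgap1, Ect2, Hmmr, Kif2c, Pbk and Cdca8. Without set 3 the count was 1 (Ect2, 2.04% of all genes), without MYC-OE 1 it was 23 (1.79%) and without MYC-OE SETD2-KO 3 it was 6 (1.46%).

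Mki67 had 3.85, 2.65 and 9.01 CPM in MYC-OE SETD2-KO, against 10.7, 54.2 and 58.1 CPM in MYC-OE. The highest MYC-OE SETD2-KO library was just below the lowest MYC-OE library. Its log2 fold change was -2.97 ± 0.67 (SE, 3 mice per group, edgeR adjusted p = 0.128), and it had an adjusted p of 0.0117 with the set term. Top2a had 5.94, 2.78 and 4.06 CPM in MYC-OE SETD2-KO, against 7.28, 32.6 and 38.1 CPM in MYC-OE, a fold change of -2.61 ± 0.62 (edgeR adjusted p = 0.139), again without overlap. Racgap1 had 3.96, 1.89 and 7.25 CPM in MYC-OE SETD2-KO, against 7.55, 18.8 and 20.1 CPM in MYC-OE, and the groups almost met (-1.81 ± 0.53, edgeR adjusted p = 0.196). Bub1, with 0.881, 0.126 and 0.714 CPM in MYC-OE SETD2-KO against 1.37, 4.89 and 6.32 CPM in MYC-OE, stood at -2.83 ± 0.76 (edgeR adjusted p = 0.174).

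Other members gave the same order without passing. Cdc20 had 1.87, 1.77 and 3.02 CPM in MYC-OE SETD2-KO, against 3.91, 9.52 and 11.1 CPM in MYC-OE (-1.87 ± 0.49, edgeR adjusted p = 0.165). Dlgap5 had 0.550, 0.379 and 1.21 CPM in MYC-OE SETD2-KO, against 1.69, 4.67 and 4.95 CPM in MYC-OE (-2.35 ± 0.59, edgeR adjusted p = 0.152). Neither pair of groups overlapped. Plk1 did overlap, with 1.43, 1.14 and 2.75 CPM in MYC-OE SETD2-KO against 1.85, 5.95 and 6.71 CPM in MYC-OE (-1.43 ± 0.55, edgeR adjusted p = 0.302).

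Within a set the same order held for most genes. In set 2, MYC-OE SETD2-KO 1 and 2 were both below MYC-OE 1 in 35 of 48 genes, where 37.3% of all genes were, with a median log2 ratio of -0.73. They were both above it in 6, where 36.0% of all genes were: Zwint, Zwilch, Spc24, Spc25, Smc4 and Kif23. In set 3, MYC-OE SETD2-KO 3 was below both MYC-OE 2 and 3 in 43 of 48, where 48.6% of all genes were, with a median of -2.0. It was above both in Zwint, Kif23, Bub1b and Nek2, where 42.3% of all genes were. An edgeR fit on the set 3 libraries alone, with 1 residual degree of freedom, called 40 lower and 3 higher, but it called 29.6% of all genes lower and 27.4% higher.

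MYC-OE SETD2-KO 3 carried a pattern of its own among the mitosis genes. Kif23 had 5.06, 4.29 and 47.0 CPM in MYC-OE SETD2-KO, against 2.90, 11.8 and 11.7 CPM in MYC-OE, so that 1 library decided a fold change of 1.10 ± 0.87 (edgeR adjusted p = 0.671). Bub1b, the checkpoint kinase BubR1, had 1.87, 0.757 and 17.2 CPM in MYC-OE SETD2-KO, against 3.27, 11.0 and 12.6 CPM in MYC-OE. Nek2 had 0.440, 1.14 and 11.3 CPM in MYC-OE SETD2-KO, against 3.91, 10.8 and 9.19 CPM in MYC-OE. In each of these genes the third library was the highest of all 12, and the other two MYC-OE SETD2-KO libraries were far below it; for Bub1b, MYC-OE SETD2-KO 1 was still above every WT library. Zwint, with 90.6, 118.7 and 170.0 CPM in MYC-OE SETD2-KO, was also highest in that library, and its 3 libraries were all above those of MYC-OE (0.87 ± 0.26, edgeR adjusted p = 0.196). It was above both other MYC-OE SETD2-KO libraries in 33 of 48 genes and below both in Nuf2, Spc24 and Spc25, where 44.0% and 44.5% of all genes were. The same library had the lowest proximal tubule sum, 1766 CPM, and the highest injury sum, 7618 CPM, and their part in these values was not tested.

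Against WT, MYC-OE SETD2-KO showed uneven differences in the mitosis genes, with none called. Of the 48, 0 were called by edgeR (0.0% of all genes higher and 0.00588% lower) or limma-voom, 5 had an unadjusted p under 0.05 (20.7% of all genes), and DESeq2 called Racgap1 and Bub1b higher (6.62% of all genes). The median log2 fold change was 0.53, against 0.07 over all genes, and 37 were above 0 (43 with total counts in place of TMM). With the set term the median was 1.46, 43 were above 0 and 0 were called. The libraries differed: MYC-OE SETD2-KO 1 was above every WT library in 28 of 48 genes, MYC-OE SETD2-KO 2 in 8 and MYC-OE SETD2-KO 3 in 36, where 38.5%, 30.8% and 44.1% of all genes were. Racgap1, with 3.96, 1.89 and 7.25 CPM in MYC-OE SETD2-KO against 1.33, 1.69 and 0.940 CPM in WT, did not overlap (1.74 ± 0.54, edgeR adjusted p = 0.153). Plk1, Dlgap5, Zwilch and Smc2 were also higher in every MYC-OE SETD2-KO library, and Ect2, which opens the cleavage furrow, lower in every one, where 14.6% and 15.3% of all genes stood apart in these directions.

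Against SETD2-KO the differences were again uneven. Of the 48 genes 0 were called by edgeR, DESeq2 or limma-voom. Of all genes, edgeR called 0.0%, and DESeq2 called 0.417% higher and 0.623% lower. In the edgeR fit 2 of the 48, Racgap1 and Bub1b, had an unadjusted p under 0.05 (9.54% of all genes). The median was 0.50, against 0.01 over all genes, and 40 were above 0. With the set term the median was 1.44, 44 were above 0 and 3 rose (3.1% of all genes): Plk1, Incenp and Kif23. Zwilch alone had every MYC-OE SETD2-KO library above every SETD2-KO library, where 5.56% of all genes did. Within set 3, MYC-OE SETD2-KO 3 was above SETD2-KO 3 in 41 of 48 genes and below it in 7, where 47.4% and 51.4% of all genes were, with a median log2 ratio of 0.74. MYC-OE 2 and 3 were both above SETD2-KO 3 in 46 and below it in Zwint and Spc25, where 42.8% and 45.8% of all genes were, with a median of 2.82.

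SETD2-KO against WT gave no shared direction. Of the 48 genes 0 were called by edgeR, DESeq2 or limma-voom (0.0% of all genes by edgeR, and 0.323% higher and 0.0118% lower by DESeq2), and 0 had an unadjusted p under 0.05, where 2.91% of all genes did. The median log2 fold change was -0.01, against -0.01 over all genes, with 24 above 0 and 24 below (37 and 11 with total counts). The first 2 SETD2-KO libraries leaned opposite ways: SETD2-KO 1 was above every WT library in 26 genes, and SETD2-KO 2 was below every WT library in 26, where 21.4% and 22.2% of all genes were. SETD2-KO 2 was above every WT library in 1 and SETD2-KO 3 in 15, where 20.9% and 38.0% were. Mki67 had 6.31, 3.60 and 3.004 CPM in SETD2-KO, against 3.56, 5.84 and 5.53 CPM in WT, which overlapped (-0.21 ± 0.62, edgeR adjusted p = 1.0). Top2a had 4.19, 1.71 and 2.51 CPM in SETD2-KO, against 2.89, 4.53 and 2.34 CPM in WT, and overlapped too (-0.21 ± 0.58, edgeR adjusted p = 1.0). Only Mad2l1 had non-overlapping groups, with 4.86, 4.15 and 4.48 CPM in SETD2-KO against 5.12, 5.51 and 4.98 CPM in WT, a log2 fold change of -0.21 ± 0.39, where 3.53% of all genes stood lower and 3.22% higher. Within set 1, SETD2-KO 1 and 2 were both below every WT library in Mad2l1 and Ect2 and above every one in 0 genes, where 6.2% and 6.02% of all genes were. SETD2-KO 3 was above SETD2-KO 1 and 2 in 12 genes and below both in 15, where 40.5% and 45.2% of all genes were.

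Whether Setd2 loss acted differently with and without MYC was tested as an interaction, the difference between MYC-OE SETD2-KO against MYC-OE and SETD2-KO against WT. Of the 48 genes 0 were called (0.00588% of all genes in either direction) and 0 by limma-voom, 29 had an unadjusted p under 0.05 (10.2% of all genes), and DESeq2 called 1, Ect2, lower (1.27% of all genes). The median was -2.06, against 0.05 over all genes, and 45 were below 0. Mki67 stood at -2.77 ± 0.90 (edgeR adjusted p = 0.485) and Racgap1 at -2.18 ± 0.74 (edgeR adjusted p = 0.485). Ect2, the gene with the lowest adjusted p, stood at -2.62 ± 0.71 (edgeR adjusted p = 0.435). It had 2.20, 1.26 and 2.97 CPM in MYC-OE SETD2-KO, 6.70, 14.1 and 14.5 CPM in MYC-OE, 2.57, 2.35 and 6.83 CPM in SETD2-KO, and 3.05, 3.99 and 3.33 CPM in WT. All MYC-OE SETD2-KO libraries lay below WT, as did SETD2-KO 1 and 2, and all MYC-OE libraries lay above it.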

How the data were processed

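RNA was sequenced from 12 primary tubular cell preparations. Per the labels' protocols, poly(A) RNA went into paired-end libraries that keep the strand. The deposited values are raw read counts for each gene; a transcript length column deposited with them gave levels per kilobase. Trimming with cutadapt 1.9.1 or Trimmomatic 0.35, and HISAT2, FastQC, MACS2 2.1.1, StringTie and the builds mm10 and GRCm38 are listed in the submitters' processing notes without roles. No source used here gives the counting program or its strand setting, so reads of overlapping genes may be shared or lost.

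The 48 genes, the other lists and the tests were chosen with earlier results of these data known. The counts entered edgeR 4.0.16 in R 4.3.3 (TMM factors 0.79 to 1.499, filterByExpr, 17019 genes, all 12 libraries, a coefficient per group, 8 residual degrees of freedom, quasi-likelihood F test), and Benjamini-Hochberg adjusted p under 0.05 was called. The spread between replicates (biological coefficient of variation) was 0.58, or 0.27 with a term for the 3 sets. All 48 genes passed the filter. Named genes were Mki67, Top2a and, in each of 10 roles, those with the smallest and largest p in MYC-OE against WT; further genes were named after their values were seen. Alternatives were DESeq2 1.42.0, limma-voom (limma 3.58.1), total-count scaling, no filter, the set term, a replicate block, fits of the compared groups or of some sets only, and each library left out. Counting intervals and floors (3 counts) cover counting error only. Same-numbered libraries of MYC-OE SETD2-KO and SETD2-KO correlated in their deviations (0.37, 0.55 and 0.60); their numbers coincide with the sets in part, and no other pair of groups had all 3 over 0.1. No pair of libraries of the same group agreed within sampling noise, and pairs across groups were not checked. MYC-OE 2 and 3 were the closest pair, with a median chi-square per gene of 1.85 (larger means less alike). The next was 3.43, for WT 1 and 2. Promoter sequences are from RefSeq, GRCm38.p6.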

Additional observations from a re-analysis of the deposited data

How the results depend on the processing

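The count of 21 mitosis genes called higher in MYC-OE against WT was 43 with total counts, 43 with DESeq2, 12 with limma-voom, 9 with the set term, 4 without the set 3 libraries, and 37 (20.3% of all genes, with 1 lower, Spc25) when only the groups compared were fitted; leaving out a library gave 0 to 44. Without the low-count filter it was 16 (2.46% of all genes) and with the replicate block 23 (8.6%), of which 19 were among the 21; the numbers do not pair these libraries by correlation. In MYC-OE SETD2-KO against MYC-OE the genes called lower, 0 by group, numbered 23 with DESeq2, 8 with the set term, 1 (Ect2) without set 3, 40 with set 3 alone (and 3 higher), and 0 to 23 when a library was left out. In MYC-OE SETD2-KO against WT DESeq2 called 2 higher. In MYC-OE SETD2-KO against SETD2-KO 3 were higher with the set term, and 24 higher and 4 lower with set 3 alone. For that comparison set 3 holds 1 library of each group, and the fit called 26.0% of all genes higher and 27.9% lower. Its counts therefore cannot tell genotype from library. DESeq2 called 1 lower for the interaction. The replicate block changed no other count. With set 3 alone, Bub1b (0.59) was called higher and Spc25 (-1.11) lower in MYC-OE SETD2-KO against MYC-OE, where the fit by group gave -0.42 and 0.62 with no call; no other of the 48 genes was called against its sign in that fit. The cause of these moves was not tested.

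Scaling by total counts in place of TMM moved the median log2 fold change of all genes to 0.44 in MYC-OE SETD2-KO against WT, 0.76 in MYC-OE against WT, -0.33 in MYC-OE SETD2-KO against MYC-OE, 0.16 in MYC-OE SETD2-KO against SETD2-KO, 0.22 in SETD2-KO against WT and -0.56 for the interaction. Each group had 3 libraries, no set held both MYC-OE and WT, and most of these genes were under 1 CPM per kilobase outside MYC-OE. MYC-OE SETD2-KO 1 and 2 held the fewest counts of all libraries, and low genes are least precise there.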
